A study of Caenorhabditis elegans with 2 samples.

Results

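The 500 nuclear regions described here gave the highest chromatin immunoprecipitation signal for HLH-26 in whole Caenorhabditis elegans. They were chosen by signal value alone, as the 500 peaks outside the mitochondrial genome with the highest signal in the ranked peak list that sets the replicates against each other, out of 35284 nuclear peaks (35301 with the mitochondrial ones). The other 34784 nuclear peaks of that list serve for comparison. The study has 1 group of 2 biological replicates and no second condition. Both are populations of young adults at 66 hours, after bleaching and arrest as starved first-stage larvae, of strain RW12174. This strain carries an eGFP fusion of hlh-26 made by CRISPR insertion together with a loxP-flanked unc-119(+) rescue marker, in an unc-119(tm4063) III background that both replicates share. Whole-animal chromatin was sheared to fragments of 200 to 800 bp and pulled down through the GFP tag, so signal from all tissues is mixed. The sample descriptions name GFP as the target of the antibody, while the samples' antibody field reads hlh-26. The lists hold no reads per peak, so depth is unknown. Control or untagged samples were not analysed here, and whether any of these regions carries signal without the fusion was not tested.

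HLH-26 is a REF-1 family member of the basic helix-loop-helix (bHLH) transcription factors, from a nematode group related to the Hairy/Enhancer of split repressors, several of whose members act downstream of Notch signalling in the embryo. Proteins of the wider bHLH class bind short words such as the E-box (CANNTG) and, for Hairy-like repressors, the N-box (CACNAG). Many of the regions below lie at genes for short structural RNAs. Small nucleolar RNAs (snoRNAs) guide chemical modification of ribosomal RNA, transfer RNAs (tRNAs) carry amino acids to the ribosome, and small nuclear RNAs (snRNAs) form the spliceosome or donate the spliced leader. Genes for tRNAs are transcribed by RNA polymerase III from promoter elements inside the gene, one of which, the B box, contains the word GTTCNANNC.

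The stretches below show what lies under the strongest summits, read 5′ to 3′ from RefSeq for WBcel235, the ce11 build of the files. They are among the peaks of highest signal, with at most 2 of each genomic class and none that overlaps an untranslated region. Each is the peak itself where it is narrow and otherwise the 300 bases around the summit. Capitals mark the annotated RNA gene, printed on its own strand, or, for mdt-26, which is printed on the forward strand, the word CACGCG on either strand. The sup-6 stretch starts inside its gene, so its capitals hold 143 of the gene's 165 bases and lack the 5′ end.
C51F7.4: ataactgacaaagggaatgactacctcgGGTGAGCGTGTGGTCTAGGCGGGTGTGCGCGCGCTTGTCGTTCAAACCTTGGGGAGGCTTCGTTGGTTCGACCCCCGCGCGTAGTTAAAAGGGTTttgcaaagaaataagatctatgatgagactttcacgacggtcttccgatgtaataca
ZK994.7: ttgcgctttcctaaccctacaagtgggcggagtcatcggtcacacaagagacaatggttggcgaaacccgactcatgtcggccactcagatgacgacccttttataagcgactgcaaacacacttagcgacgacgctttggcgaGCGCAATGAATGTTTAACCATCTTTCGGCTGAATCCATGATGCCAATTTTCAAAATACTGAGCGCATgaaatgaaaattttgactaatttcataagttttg
mdt-26: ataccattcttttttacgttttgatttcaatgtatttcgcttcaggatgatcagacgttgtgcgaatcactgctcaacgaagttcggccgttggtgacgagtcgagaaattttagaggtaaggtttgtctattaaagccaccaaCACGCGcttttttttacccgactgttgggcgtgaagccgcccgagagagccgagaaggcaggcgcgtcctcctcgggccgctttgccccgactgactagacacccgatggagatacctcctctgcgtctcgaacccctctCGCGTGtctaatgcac
C04A11.t1: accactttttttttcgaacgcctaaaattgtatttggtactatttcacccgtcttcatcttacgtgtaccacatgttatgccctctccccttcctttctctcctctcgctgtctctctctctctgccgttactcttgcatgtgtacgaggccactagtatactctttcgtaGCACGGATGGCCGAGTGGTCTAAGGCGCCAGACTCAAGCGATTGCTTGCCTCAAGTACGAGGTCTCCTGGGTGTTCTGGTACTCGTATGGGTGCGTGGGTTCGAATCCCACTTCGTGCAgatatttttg
mrpr-1: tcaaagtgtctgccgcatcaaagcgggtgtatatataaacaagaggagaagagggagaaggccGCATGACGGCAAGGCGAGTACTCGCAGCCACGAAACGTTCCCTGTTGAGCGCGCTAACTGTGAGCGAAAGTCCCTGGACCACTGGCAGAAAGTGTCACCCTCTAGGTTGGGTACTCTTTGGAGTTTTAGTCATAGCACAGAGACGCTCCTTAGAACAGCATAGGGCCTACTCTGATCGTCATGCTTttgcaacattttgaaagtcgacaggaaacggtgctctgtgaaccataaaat
F36H1.17: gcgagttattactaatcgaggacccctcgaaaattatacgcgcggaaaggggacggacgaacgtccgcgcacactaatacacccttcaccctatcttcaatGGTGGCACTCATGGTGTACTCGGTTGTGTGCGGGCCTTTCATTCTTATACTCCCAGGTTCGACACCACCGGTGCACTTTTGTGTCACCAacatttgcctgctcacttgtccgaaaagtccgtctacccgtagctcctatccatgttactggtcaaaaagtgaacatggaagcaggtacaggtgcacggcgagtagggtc
sup-6: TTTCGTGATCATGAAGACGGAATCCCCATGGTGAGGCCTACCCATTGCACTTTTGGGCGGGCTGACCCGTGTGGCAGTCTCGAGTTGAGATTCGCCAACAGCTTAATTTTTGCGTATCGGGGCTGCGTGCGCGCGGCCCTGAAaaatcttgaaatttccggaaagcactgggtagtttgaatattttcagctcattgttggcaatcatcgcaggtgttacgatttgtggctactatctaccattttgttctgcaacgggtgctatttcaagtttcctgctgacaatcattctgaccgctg

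C51F7.4 (chrV:12303571-12303750, forward strand) and ZK994.7 (chrV:8500435-8500679, forward) are snoRNA genes, C04A11.t1 (chrX:13665384-13665683, forward) is a tRNA-Leu gene, and sup-6 (chrII:12944646-12944945, reverse) is an snRNA gene. The gene mrpr-1 (chrII:7200170-7200469, forward) encodes the RNA of RNase MRP, and F36H1.17 (chrIV:11026021-11026320, reverse) is an unclassified non-coding RNA. The summit of the mdt-26 stretch (chrII:5661665-5661964) lies in an intron of that gene, which encodes a Mediator subunit. In C51F7.4 the summit is base 85 of the printed stretch and lies between a pair of GTTCNANNC words at bases 68 to 76 and 94 to 102. In C04A11.t1 that word occupies bases 270 to 278, near the 3′ end of the tRNA gene, whereas the summit is base 151, upstream of the gene. Next to that summit the N-box CACNAG occupies bases 152 to 157. The C04A11.t1 stretch also has CATGTG at bases 138 to 143 and, on the opposite strand, 70 to 75. ZK994.7, with its summit at base 143, has CACNAG at bases 43 to 48. On the opposite strand CATGCG occurs at bases 207 to 212 of ZK994.7 and 63 to 68 of mrpr-1. F36H1.17 has the word at bases 158 to 166, and its summit is base 150. In mdt-26 the word CACGCG ends at base 150 and the summit is base 151, and GTTCNANNC occurs on the opposite strand at bases 270 to 278. Neither mrpr-1, sup-6 nor ZK994.7 holds GTTCNANNC in the stretch printed. A word match is a description of the letters and not evidence of binding.

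Signal fell steeply over the first ranks and then slowly. The signal, in the peak caller's unstated unit, was 230.1 at C51F7.4, 215 at ZK994.7, 198 at rpr-1 (the RNA of RNase P, which trims the 5′ ends of tRNA precursors) and 194 at T03F7.8, another snoRNA gene. The 4 stand apart from the fifth, the snoRNA gene W03C9.9, at 139. Each of these 4 overlaps a peak in each replicate's thresholded list, the short list that the authors kept from its ranked one, and they are also the only members narrower than 524 bp, the narrowest being 143 bp. The median over the 500 was 70.8 (quartiles 67.0 and 78.5), against 25.7 (18.04 and 34.6) in the other peaks, a gap that the choice of members fixes. At the edge of the choice the signals of the last 5 members were 64.14 at gln-3 (glutamine synthetase), 64.13 at B0250.17, 64.12 at mrpr-1, 64.10 at arf-6 (a small GTPase) and 64.09 at C33B4.4. The 5 peaks just outside, at aakg-1, F46F3.18, cpg-1, nars-1 and lgc-53, had signals of 64.07 to 64.01, so the boundary follows no gap in signal.

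**Figure D1:**
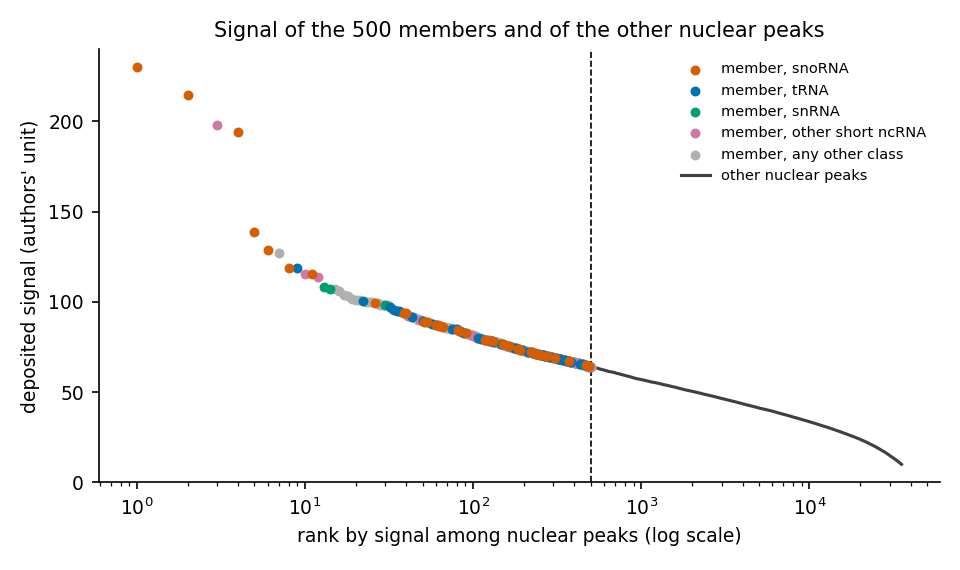
Deposited signal (vertical axis, authors' unit) against rank among the nuclear peaks (horizontal axis, log scale), with members as points coloured by class and the other peaks as a line. The first 4 points, 3 snoRNA genes and rpr-1, lie between 194 and 230.1, and the dashed line after rank 500 crosses a smooth curve.

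Genes for tRNAs, ribosomal RNAs, snRNAs and snoRNAs carried 18% of the members (90 of 500, exact 95% interval 14.7% to 21.7%), against 2.38% of the other peaks (827 of 34784, 2.22% to 2.54%). Here and below, a peak belongs to a short RNA gene when it overlaps it or lies within 200 bp, and intervals (Clopper-Pearson) cover counting error over peaks only. No test was run, because peaks are not replicates of the experiment and the members were selected on signal. The share followed rank: it was 36 of the first 100 members, 20, 18 and 10 of the next groups of 100, and 6 of the last 100, with 46 of the next 500 peaks (9.2%). By class, 38 members lay at snoRNA genes (7.6%, against 0.624% of the other peaks), 44 at tRNA genes (8.8%, against 1.49%) and 8 at snRNA genes (1.6%, against 0.247%). No member lay at a ribosomal RNA gene, a count that still allows 0.6% of members, while 4 of the other peaks did. MicroRNA genes held 3 members and other short non-coding RNA genes 48 (9.6%, against 8.004%). The other short non-coding RNAs thus differed little from the background share.

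**Figure D2:**
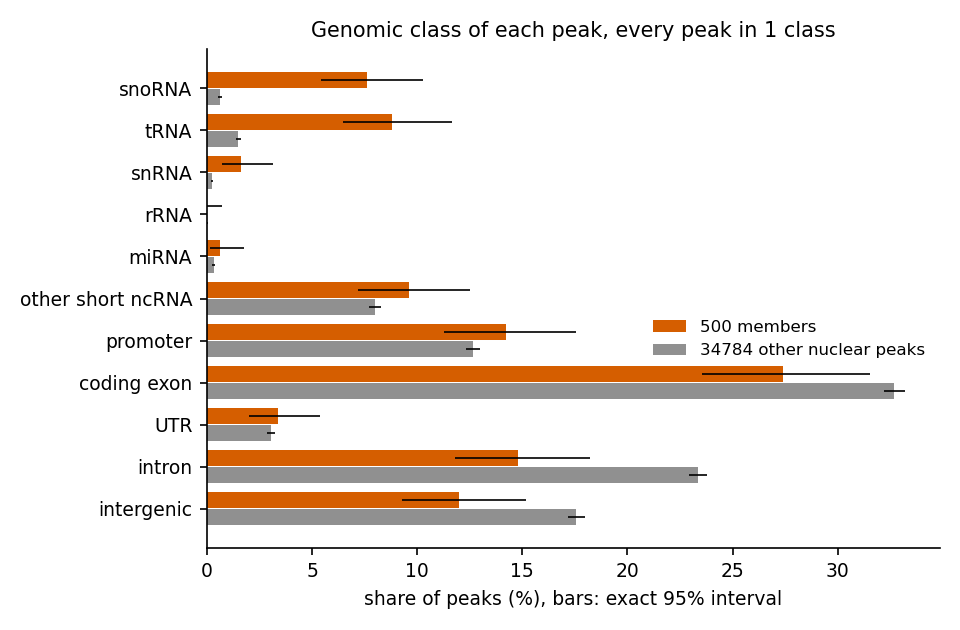
Share of peaks (horizontal axis, percent) in each genomic class for the 500 members and, under each, the other nuclear peaks, with exact 95% intervals. The members' shares exceed the others' at snoRNA, tRNA and snRNA genes (7.6%, 8.8% and 1.6%) and lie below them in introns and intergenic sequence (14.8% and 12%).

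The snoRNA members led the ranking, with 19 of the 38 among the first 100. Of the 346 nuclear snoRNA genes, 40 had a member on them or within 200 bp (11.6%), and 177 had any ranked peak. C51F7.4 had a signal of 118 in replicate 1's list and 108 in replicate 2's, and ZK994.7 had 121 and 92.1. T03F7.8 had 110.3 in replicate 1 and 77.9 in replicate 2, and W03C9.9 had 73.8 and 65.3. Y75B12B.12, the fifth snoRNA by signal, had 61.7 and 65.7. These 5 were high in both replicates, and the 4 of highest combined signal were higher in replicate 1. So were 23 of all 38 snoRNA members and 146 of 217 other snoRNA peaks. All 38 snoRNA members overlapped a ranked peak in each replicate's own list, against 90.6% of all 500 members and 31.1% of all nuclear peaks. C51F7.4 lies within the protein-coding gene frm-7, ZK994.7 in pxn-1 and T03F7.8 in cutl-18, and 18 of the 38 snoRNA genes lay wholly in an intron of a protein-coding gene.

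Summits at snoRNA genes sat close to the start of the RNA. The median summit was 13.5 bp upstream of the 5′ end (quartiles -41 and 28.2 bp). A distance of 100 bp or less was seen at 30 of the 38. The word GTTCNANNC, on the gene's own strand between 150 bp upstream and the 3′ end, was present at 16 of the 38 snoRNA genes (42.1%, 26.3% to 59.2%). Among 129 other snoRNA genes that had a ranked peak but no member it was present at 22 (17.1%, 11.0% to 24.7%). In 15 of the 16 the first such word lay upstream of the RNA, with a median position of -12 bp. The tRNA genes differ in that the word is part of the gene itself: 42 of the 43 tRNA genes with a member and 318 of 331 others with a peak held it, all inside the gene.

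**Figure D3:**
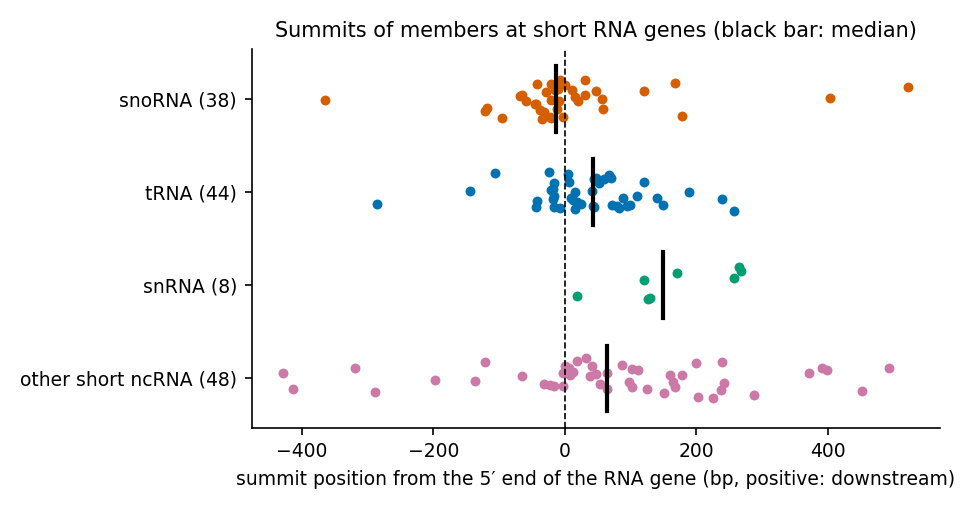
Position of each member's summit from the 5′ end of its RNA gene (horizontal axis, bp, positive downstream) for snoRNA, tRNA, snRNA and other short non-coding RNA genes, with black bars at the medians. The snoRNA median lies at -13.5 bp, the tRNA median at 42.5 bp and the snRNA median at 150 bp.

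The tRNA members were concentrated on the X chromosome at the top of the ranking. All 14 tRNA members among the first 100 were on X, as were 9 of the other 30, so that X held 23 of 44 (52.3%). Of the 14, 2 were overlapping peaks of 1 gene, C04A11.t1, at ranks 9 and 57. Among the other peaks X held 228 of 520 tRNA peaks (43.8%), and 276 of the 612 nuclear tRNA genes are on X. Counted over genes, 30 of 276 X-linked tRNA genes had a member (10.9%, 7.45% to 15.2%), against 26 of 336 autosomal ones (7.74%, 5.12% to 11.1%), intervals that overlap. The tRNA-Leu gene C04A11.t1 had a signal of 56.9 in replicate 1 and 63.4 in replicate 2 at rank 9, and 44.4 and 19.8 at rank 57. T07H6.t2 (tRNA-Ala) had 36.3 and 60.6, C28G1.t1 (tRNA-Glu) 55.1 and 40.8, F15G9.t1 (tRNA-Ala) 44.1 and 60.9, and C53C7.t2 (tRNA-Ser) 49.4 and 39.97. The first compared list gave the higher signal at 16 of the 44 tRNA members, against 292 of 520 other tRNA peaks. Over all classes it did so at 308 of the 500 members (61.6%) and 23237 of the 34784 other peaks (66.8%). Genes for 16 of the 21 tRNA types were among those assigned a member, with the highest counts for tRNA-Ala (6 of 34 genes) and tRNA-Gly (5 of 55). Against the number of genes, tRNA-Asp (4 of 27) and tRNA-Ile (4 of 29) stood above tRNA-Gly. The 50 bases at the summit occurred more than once in the genome for 6 of the 44 tRNA members, so reads there may belong to another copy. C11E4.t1 was the strongest of these, with 19 copies.

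Among the snRNA members were sup-6, with a signal of 56.6 in replicate 1 and 49.4 in replicate 2, and sls-2.4 (55.3 and 46.3), a gene for the second spliced leader. The snRNA genes sup-39 (38.2 and 39.8) and F38E11.10 (45.1 and 35.6) followed. Replicate 1 was higher in 6 of the 8 snRNA members, against 56 of 86 other snRNA peaks. Their summits lay downstream of the RNA's 5′ end, by a median of 150 bp, and only 1 lay inside the RNA. The RNase P and RNase MRP RNA genes each had a pair of overlapping members. For rpr-1 the members ranked 3 and 436, and both carry the same replicate 1 entry (signal 112.5), paired with replicate 2 entries of 88.8 and 23.1. For mrpr-1 they ranked 10 (48.5 in replicate 1 and 64.5 in replicate 2) and 498 (27.9 and 31.6). F36H1.17 (72.7 and 45.9), C14F11.14 (48.4 and 41.1) and Y37A1B.335 (51.4 and 33.6) were the next strongest other short non-coding RNAs. The microRNA genes with a member were mir-61, mir-80 and mir-41, the first at rank 256, and at mir-80 the entries were 57.4 in replicate 1 and 18.4 in replicate 2.

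Protein-coding promoters, taken as 500 bp upstream to 100 bp downstream of a transcript start, held the summit of 101 members (20.2%, 16.8% to 24.0%), against 14.5% of the other peaks (5030, 14.1% to 14.8%). Of these 101, 30 also lay at a short RNA gene, which leaves 71 counted as promoter members below. The strongest were rpi-2 (58.6 in replicate 1 and 48.8 in replicate 2), D2096.7 (52.8 and 59.5), Y43F8B.2 (60.4 and 43.6), kin-14 (58.2 and 34.5) and Y17D7C.2 (58.6 and 51.9). The rpi-2 entry of replicate 2 has no overlapping peak in that replicate's own ranked list. At D2096.7 and kin-14 the summit also lay within the annotated end of a neighbouring gene, nap-1 (a nucleosome assembly protein) and mstr-1. Promoter summits lay a median of 123 bp upstream of the start (quartiles -297 and -28 bp), against 146 bp upstream in the other peaks, and 81 of 101 were upstream. Among the 71 without a short RNA gene the median distance from the nearest start, in either direction, was 77 bp (quartiles 35 and 258.5 bp), against 137 bp (57 and 283 bp) in the 4400 other promoter peaks, with quartile ranges that overlap.

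Coding exons held 137 members when short RNA genes and promoters are set aside (27.4%), against 32.7% of the other peaks. Introns held 74 (14.8%, against 23.3%), intergenic sequence 60 (12%, against 17.6%) and untranslated regions 17 (3.4%, against 3.04%). With every summit in a coding exon counted, the share was 32.2%, against 37.6%. This direction was not stable: away from short RNA genes the share was 41.8%, against 40.1%, and it was 37.6%, against 37.5%, when the 500 peaks were taken by replicate 1's signal alone. The strongest coding-exon members were at icl-1 (51.8 in replicate 1 and 40.8 in replicate 2), a glyoxylate cycle enzyme, R12E2.13 (61.4 and 33.7), rpl-38 (55.8 and 44.7), pot-3 (47.9 and 56.5), a telomere-binding protein, and col-19 (46.4 and 50.7), an adult cuticle collagen. The rpl-38 summit lies in an exon of lgc-31 and was assigned to rpl-38 by its nearer start. In introns, mdt-26 (42.0 and 67.8) and epc-1 (56.8 and 36.8), a homologue of Enhancer of Polycomb, led. The mdt-26 entry of 42.0 is not the strongest overlapping peak of replicate 1's own list, which had 67.9. Between genes, the member next to lpin-1, a lipin phosphatase, had 54 and 45.3. The strongest member in an untranslated region, at pro-1 with its summit in mnk-1, had 52.1 and 63.5.

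By the nearest transcript start, the 359 members away from short RNA genes fell to 336 protein-coding genes. Collagen and cuticle genes made up 17 of these (5.06%, 2.97% to 7.98%), against 162 of 11047 genes assigned to the other peaks (1.47%). Ribosomal protein genes made up 11 (3.27%, 1.65% to 5.78%), against 48 (0.435%). These lists were chosen with results of these data known. The collagen and cuticle members ran in signal from 96.2 at col-19, 92.0 at cut-2 and 85.1 at col-108 down to 64.3 at col-163, and 15 of the 17 summits lay in a coding exon (88.2%, against 57.3% of 410 other peaks of the same list) and none in a promoter window (against 11.5%). GC content at these 17 summits had a median of 61.4%, against 46.5% at those other peaks. The ribosomal protein members were 12 peaks with signals of 66.7 to 101, of which rpl-38, rpl-19 (52.4 in replicate 1 and 32.5 in replicate 2) and rps-9 (51.6 and 35.1) were strongest. These are assignments by nearest start: the rpl-38 summit lay in lgc-31 and the rps-9 summit between genes, 1060 bp from the start. The median distance from the nearest start was 753 bp, against 363 bp in the other ribosomal protein peaks. Of the 12, 5 were in a coding exon (41.7%, against 59.0% of 117 other ribosomal protein peaks) and 1 in a promoter window (8.33%, against 16.2%). Their median GC content was 38.1%, against 41.6%. Collagen and ribosomal protein members thus differed in base composition, and the part of either composition or transcription in these peaks was not tested.

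Each of the other lists had at most 2 genes with a member. REF-1 family genes had none among the 336, other bHLH genes none, histones none, and major sperm proteins, vitellogenins, translation factors and aminoacyl-tRNA synthetases none. A count of 0 among 336 genes allows a share of up to 0.893%, and the other peaks reached 3 REF-1 family genes and 17 other bHLH genes of 11047. The other peaks' shares were 0.244% for histones, 0.0724% for major sperm proteins and 0.0453% for vitellogenins. They were 0.217% for translation factors and 0.190% for aminoacyl-tRNA synthetases. All lie below 0.893%, so these counts of 0 show no difference from the other peaks. In the Notch pathway only dsl-4, a ligand-like gene, had a member, at rank 377 and by its nearest start, with the summit in F16B12.1. Nuclear hormone receptors had nhr-41 and nhr-14, homeobox genes ceh-22 (38.3 in replicate 1 and 34.7 in replicate 2) and ceh-21 (34.0 and 47.9), muscle genes myo-2 (37.9 and 31.6) and lev-11 (39.99 and 31.9), and RNA-binding proteins hrpu-1 and rsp-8. Chaperones had hsp-6, the proteasome pas-7 and Mediator mdt-26. Lists with 2 genes made up 0.595% of the 336 each, against 1.43% of the genes of the other peaks for nuclear hormone receptors, 0.371% for homeobox genes, 0.263% for muscle genes and 0.435% for RNA-binding proteins. Lists with 1 gene made up 0.298%, against 0.118% for the Notch pathway, 0.272% for chaperones, 0.226% for the proteasome and 0.0905% for Mediator. At counts of 1 or 2 the exact intervals of these shares (0.0722% to 2.13% for 2 genes, 0.00753% to 1.65% for 1) include each of the other peaks' shares. No ranked nuclear peak lay within 2000 bp of hlh-26 itself, and the nearest member summit was 9976 bp away. The rescue marker gene unc-119 had 2 ranked peaks within 2000 bp, the better at rank 26554, and no member.

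Members rarely crowded together. Merging those that overlap left 490 regions, 10 of them pairs, and 26 genes had more than 1 member. The gene with most was lhgd-1, with 3 members at ranks 150, 337 and 359 in 2 regions. Others with 2 included rpr-1, mrpr-1, C04A11.t1, zip-2, a bZIP transcription factor, azin-1, M01H9.3, zip-7, srpr-2.2 and D2096.7. Across chromosomes the members followed the other peaks: X held 20.4%, against 21.2%, and V 19.6%, against 21.8%, with IV highest above its share (15.6%, against 13.97%).

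Nearly every member had a counterpart in each replicate's own ranked list. In replicate 1's list 480 of 500 overlapped a peak (96.0%, 93.9% to 97.5%), against 51.9% of all nuclear peaks of the ranked list. In replicate 2's list 473 did (94.6%, 92.2% to 96.4%), against 54.9%, and 453 overlapped a peak in both (90.6%, 87.7% to 93.0%), against 31.1%. No member lacked a counterpart in both, a count that still allows 0.6% of members, against 24.3% of all nuclear peaks. Far fewer overlapped a peak of the thresholded lists. In replicate 1's there were 9 (1.8%, against 0.0397% of all nuclear peaks) and in replicate 2's 14 (2.8%, against 0.0453%). The share with both followed rank, at 98, 92, 91, 89 and 83 of each successive 100 members, and 391 of the next 500 peaks. These lists come from the same 2 libraries as the signal that chose the members, so the overlap is a description of them and no independent support. The compared entries were identical in interval and signal to a peak of replicate 1's own list for 480 members and of replicate 2's for 473, which is why the first compared list is called replicate 1 here. Among the other nuclear peaks this held for 53.4% and 56.0%, so many of their compared entries do not occur in the replicates' own ranked lists.

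The order of peaks recurred less than their presence. Only 216 members were also among the 500 of highest signal in the first compared list and 212 in the second, with 66 in both, and those top 500 lists shared 73 peaks in all. Ranked peaks can share a compared entry, as 148 members did in the first list and 179 in the second, which affects these counts. In the replicates' own lists, 247 members overlapped a peak among replicate 1's 500 of highest signal and 243 among replicate 2's. Both held for 91 members and neither for 101. The overlapping peak's median rank was 478 in replicate 1's own list and 467 in replicate 2's, among 19376 and 24274 nuclear peaks. The global irreproducible discovery rate (IDR) of a peak estimates the share of irreproducible peaks among those at least as reproducible as it. It was 5% or less at 212 members (42.4%), against a background of 0.774% over all nuclear peaks, and 1% or less at 71 (14.2%), against 0.221%. Nothing is read from these shares, since the IDR is computed from the same paired signals. It reached 5% at 91, 66, 41, 12 and 2 of the successive groups of 100, and 61 of the other peaks reached it too. By class it was reached at 27 of 38 snoRNA members, 23 of 44 tRNA members, 35 of 71 promoter members and 49 of 137 in coding exons. A member with strongly unequal entries was egl-30, which encodes a G protein alpha subunit, with 14.8 in the first list and 47.4 in the second and an IDR of 73.2%. The strongest overlapping peak of replicate 1's own list there had 31.0. The other series ranked list, whose compared pair is not stated, held all 500 intervals, 499 of them among its own first 500, but only 178 at an IDR of 5% and 135 at 5% in both.

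**Figure D4:**
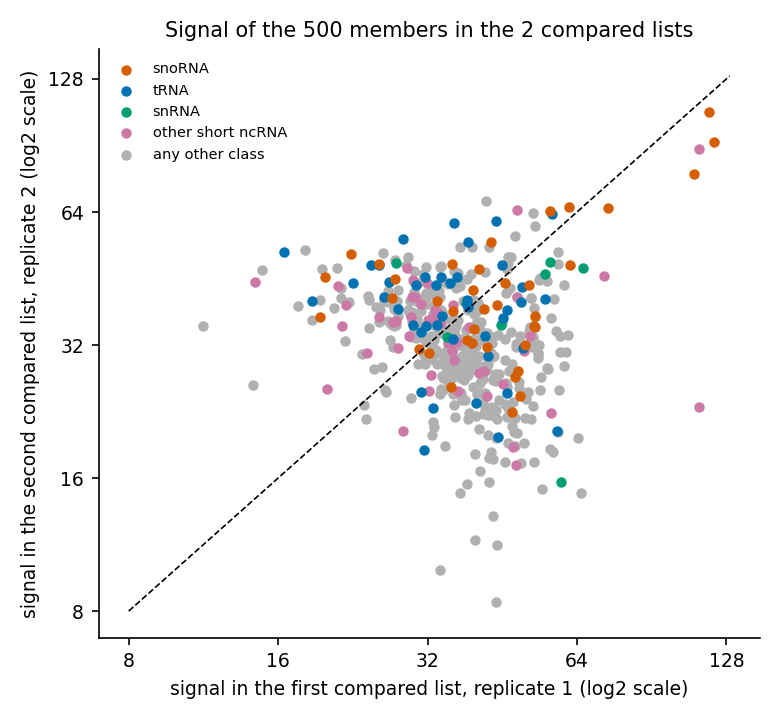
Signal of each member in the first compared list (horizontal axis, replicate 1) and the second (vertical axis, replicate 2), both on log2 scales, coloured by class. The first 4 members stand apart at the upper right. Below the dashed line of equal signal lie 308 of the 500 (61.6%), against 66.8% of the other nuclear peaks, which are not drawn. Of the 44 tRNA members 16 lie below it.

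**Figure D5:**
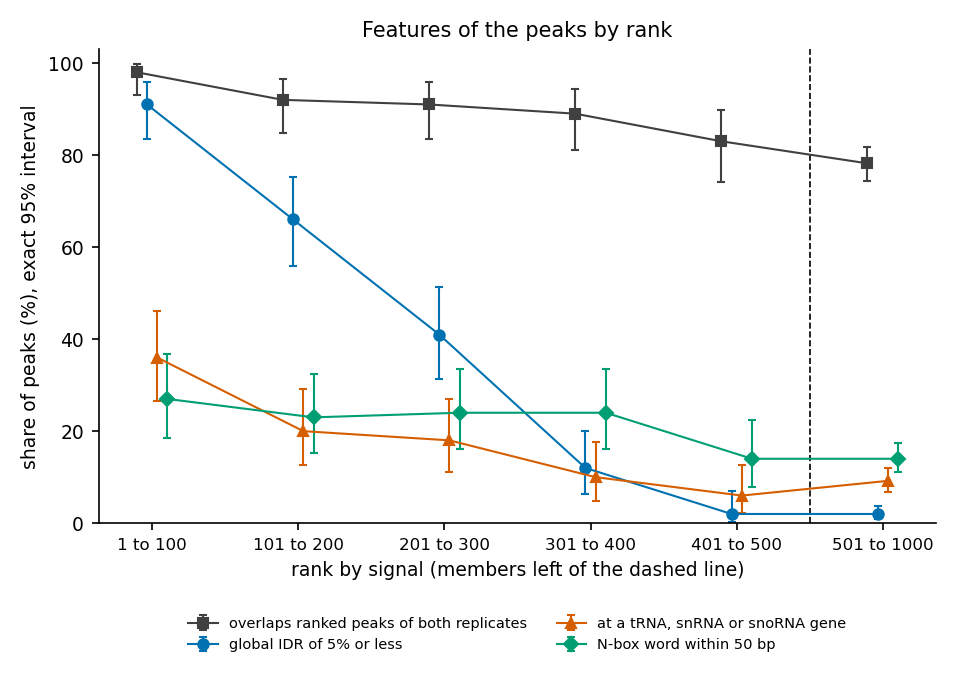
Share of peaks (vertical axis, percent, exact 95% intervals) by rank for the 5 groups of 100 members and for the next 500 peaks, right of the dashed line. Overlap with both replicates stays above 80% among members, while the IDR share drops to 2 of the last 100 and the share at tRNA, snRNA or snoRNA genes to 6.

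Sequence around member summits was richer in G and C. Within 50 bp either side, GC content had a median of 49.5% (quartiles 42.6% and 55.4%) in the members, against 41.6% (35.6% and 47.5%) in the other peaks, and the medians were the same away from short RNA genes. Windows with no repeat-masked base made up 53.0% of members, against 40.2% of other peaks. The summit's 50 bases had more than 1 copy in the genome in 9 members (1.80%), against 1.54%. The exact intervals of these shares overlap (0.826% to 3.39% in members, 1.42% to 1.68% in the other peaks).

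Of 8 words searched on both strands in these 101-base windows, the N-box CACNAG was the most common, in 22.4% of members (18.8% to 26.3%), against 13.1% of the other peaks (12.8% to 13.5%). The N-box was the most common of the 8 in the other peaks too, and it fixes fewer bases than each of the other words. It was found in 27, 23, 24, 24 and 14 of the successive groups of 100 and in 14% of the next 500 peaks. Away from short RNA genes the shares were 22.01% and, in the other peaks, 13.1%. CACGCG was found in 27 members (5.4%, 3.59% to 7.76%), against 1.87%, and away from short RNA genes in 3.9%, against 1.74%. The canonical E-box CACGTG was found in 13 (2.6%, 1.39% to 4.41%), against 2.42%, intervals that overlap. CATGTG (4.4%, against 3.71%), CATGCG (3.2%, against 2.15%) and CAGCTG (4.2%, against 2.74%) also had intervals that overlap those of the other peaks. Away from short RNA genes the direction turned for CATGTG (2.23%, against 3.63%) and CATGCG (1.95%, against 2.09%), while CAGCTG was found in 5.01% (2.998% to 7.81%), against 2.79% (2.61% to 2.98%). GAGAGA was found in 10% (7.51% to 13.0%), against 7.01% (6.75% to 7.29%), but away from short RNA genes in 8.36% (5.71% to 11.7%), against 6.55% (6.28% to 6.83%), intervals that overlap. GTTCNANNC was found in 57 members (11.4%), against 4.46%, but in 4.74% of members away from short RNA genes, against 4.18%. GC content differs between the sets, as given above, and its part in the N-box and CACGCG shares was not tested. In windows with no masked base the N-box shares were 23.8% in members and 16.4% in the other peaks.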

How the data were processed

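HLH-26 binding was measured by chromatin immunoprecipitation and sequencing in 2 replicates of 1 group. The 8 lists on ce11, as deposited, follow the narrowPeak layout and have no headers. The deposited signal value of a peak is a score of the peak caller in an unstated unit, so it ranks and describes peaks within a list. The deposited IDR is a −log10 value, and the deposited score of 0 to 1000 is that value rescaled, so that 540 stands for an IDR of 5% and 830 for 1%. Values of the series lists are the authors' values over both replicates, with no SD. Not given in the sources used here: the peak caller, its version and any control.

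Peaks were ranked by signal. Genes came from Ensembl release 115, with RefSeq symbols by gene ID, and sequence from RefSeq, both WBcel235. Classes were assigned in the order short RNA gene (non-coding RNAs other than the named classes up to 350 bp), promoter, coding exon, untranslated region, intron, intergenic, and genes as the short RNA gene or else the nearest transcript start. Coordinates are 1-based. Shares have exact 95% intervals, and a count of 0 allows 3 counts. No p-value was computed. The members and gene lists were chosen with earlier results of these data known. Named genes are those of the 25 members of highest signal, of members thresholded in both replicates, of the 5 strongest of each class, of gene lists (up to 4 genes each, the 3 strongest of longer ones), of the 10 genes with most members and of the 5 ranks on either side of the edge, with hlh-26 and unc-119. Other genes named (C11E4.t1, col-163, frm-7 and other hosts) were chosen after their values were seen. Alternatives varied the number of peaks, list, replicate, windows and overlap. Among the members these rules name and the stretches chosen for printing, 1 is not reported here. Functions were tested on simulated data and returned the known answer in 7 of 7 checks. Python 3.11.15, numpy 2.4.6, pandas 2.3.3, scipy 1.17.1 and matplotlib were used.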

Additional observations from a re-analysis of the deposited data

How the results depend on the processing

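Members stood on the same side of the other peaks in 96 of 98 alternative values, and the exceptions were both the share in coding exons. The 98 include the replicate overlap and IDR shares, which come from the same libraries as the signal that chose the members. Nothing is read from the side of those shares. Of the 98, 65 moved by less than the counting interval and 33 by more. With the 250 peaks of highest signal, the share at tRNA, rRNA, snRNA or snoRNA genes was 26%, in coding exons 27.2%, with a peak in replicate 2's list 96.8%, in both lists 94% and at an IDR of 5% 72.4%. With 1000 peaks, promoters were 16.5%, these RNA genes 13.6%, replicate 1's list 91.2%, both lists 84.4%, the IDR share 22.2% and the N-box 18.2%. The IDR share was 35.8% in the other series list, 54.6% when ranked by score and 14.2% at an IDR of 1%. Median GC was 47.5% when ranked by score, 48.3% within 100 bp and 52.5% in unmasked windows. The narrower promoter window (250 bp upstream to 50 bp downstream) gave 12%, all short RNA genes 28.2% and the N-box within 100 bp 37%. Coding exons were 41.8% away from short RNA genes (40.1% in the other peaks) and 43.4% in unmasked windows (57.03%); the unmasked, single-copy and non-RNA settings were added with the data in view.

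Taking 500 peaks by the signal of 1 replicate alone gave 17.4% to 18% in promoters, 14.4% to 21% at these RNA genes, 34.8% to 37.6% in coding exons, 76.4% to 95.8% in replicate 1's list, 82.4% to 94.8% in replicate 2's, 72.2% to 78.4% in both, 30.6% to 31.4% at an IDR of 5%, a GC median of 46.5% to 47.5% and the N-box in 18% to 20.8%. Causes were not tested. No paired analysis was possible because there is 1 group. Unknown depth and the absence of a control analysed here limit what a signal value can say.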
